A study of Rattus norvegicus with 6 samples.

Results

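Star miRNAs are the strands of a miRNA hairpin that carry an asterisk in the older naming of miRNAs. They were examined here in rat tendon-derived stem cells (rTDSCs) with and without mechanical loading. A miRNA belonged to the set when its name on the array ended in an asterisk and it was not among 38 asterisk names set aside by the rule, which were miR-21*, miR-31*, miR-140* and the names whose numbers belong to the large imprinted miRNA cluster of the Dlk1-Dio3 locus. This gave 202 star miRNAs of 677 miRNAs on the array, beside 437 names without an asterisk. The rule itself uses names and no measured value, although it was written with earlier results of these data known.

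rTDSCs were isolated from the patellar tendons of 8-week-old male Sprague Dawley rats, which carried no labelled transgene or deletion, and were used at passage 3. In the loading group the cells were stretched uniaxially in cycles on collagen-coated silicone plates (elongation 10%, frequency 0.5 Hz, 8 h each day), and in the non-loading group they were kept static, both for 7 days. Each group had 3 samples, and each sample was hybridised in 1 colour to its own Agilent rat miRNA array, with the 6 arrays on 1 slide scanned once. The cells are cultured adherent cells without the tissue around them, the colonies were mixed into one pool before passaging, and nothing in the sources used here says that the 3 samples of a group came from separate animals or cultures, so that each p-value measures only the spread between these samples, which may be technical.

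A miRNA gene is transcribed as a longer RNA that folds into a hairpin, and the enzymes Drosha and Dicer cut from it a short duplex of 2 strands. One strand, the guide, is loaded into an Argonaute protein and pairs through its seed, the bases 2 to 8, with target mRNAs. The other strand, the passenger or star strand, is usually degraded, although which strand is kept can differ between hairpins and between tissues. The asterisk was given to the strand that was found less often when the hairpin was named. Newer names give the arm of the hairpin instead, 5p or 3p, and say nothing about abundance.

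Of the 202 star miRNAs, 9 were detected on all 6 arrays and could be compared between the groups. For 5 of them the arm could be assigned from the usual naming of these miRNAs, without a check against the probes, and the RefSeq table (build GRCr8) holds the sequence. These are shown with the other arm of the same hairpin so that the strands measured as star and partner can be told apart. The seed is in capitals, the rest is in lower case, and each sequence runs 5′ to 3′.
miR-129-1* (rno-miR-129-1-3p): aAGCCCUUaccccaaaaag
miR-129-2* (rno-miR-129-2-3p): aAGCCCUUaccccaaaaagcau
partner of both, miR-129 (rno-miR-129-5p): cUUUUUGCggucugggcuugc
miR-211* (rno-miR-211-3p): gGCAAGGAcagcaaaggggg
partner miR-211 (rno-miR-211-5p): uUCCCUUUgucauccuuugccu
miR-296* (rno-miR-296-3p): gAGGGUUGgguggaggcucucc
partner miR-296 (rno-miR-296-5p): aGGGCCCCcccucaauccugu
miR-652* (rno-miR-652-5p): aCAACCCUaggagggggugccau
partner miR-652 (rno-miR-652-3p): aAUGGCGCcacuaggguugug

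The 3p strands of miR-129-1 and miR-129-2 come from separate hairpins, at chr4:58589759-58589777 on the plus strand, inside the uncharacterised gene LOC120102250, and at chr3:100657405-100657426 on the minus strand. They share the seed AGCCCUU, which 2 mature miRNAs of the table carry, and the 19 bases of the shorter strand equal the first 19 bases of the longer one. Signals of miR-129-1* and miR-129-2* therefore cannot be assigned to separate genes with certainty. miR-211* lies at chr1:127189389-127189408 on the plus strand, inside Trpm1, which codes for a channel of melanocytes and retinal bipolar cells. miR-296* lies at chr3:183470079-183470100 on the minus strand, and miR-652* at chrX:111140088-111140110 on the plus strand, inside Tmem164. The star strands of miR-211 and miR-652 each hold GGGGG, searched as these letters on the printed strand only, whereas 0 of the partner strands and 10 of the 693 mature rat miRNAs of the table (1.44%) do. The GC content was 65% for miR-211*, 68.2% for miR-296* and 60.9% for miR-652*, against a median of 47.8% over the table. For miR-129-1* and miR-129-2* it was 47.4% and 45.5%. The partner strands had 57.1% for miR-129, 45.5% for miR-211, 66.7% for miR-296 and 57.1% for miR-652. A GC content above the median was therefore not confined to the star strands.

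The label of the cells was checked against miRNAs known from particular lineages. Of 9 miRNAs abundant in mesenchymal cells or fibroblasts, 8 were detected on all 6 arrays, with miR-21 the one of highest signal, and the exception, miR-145, was detected on 3 arrays. All 4 miRNAs of skeletal muscle (miR-1, miR-133a, miR-133b and miR-206), both of neurons, the 1 of liver and all 5 of epithelium were detected on 0 arrays. Of 6 blood miRNAs, 5 were detected on 0 arrays, among them miR-150 and miR-451, while miR-223, a miRNA of myeloid cells, was detected on 5. miR-126, of endothelium, was detected on all 6, at 2.77% to 5.36% of the signal unit used here, the 75th percentile of an array over the 173 probes detected on all arrays. In these bulk samples, fewer cells of a type and less RNA per cell cannot be told apart.

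Most star miRNAs were not detected. The scanner software, which calls each miRNA present or absent on each array, detected 9, 17 and 10 of the 202 stars in non-loading replicates 1, 2 and 3, and 21, 9 and 19 in loading replicates 1, 2 and 3. As a share of the stars this was 4.46% to 10.4% per array, where 29.1% to 36.8% of the 437 names without asterisk were detected. Over the 6 arrays, 179 stars (88.6%) were detected on no array, 14 on 1 to 5 arrays and 9 (4.46%) on all 6. Of the names without asterisk, 62.7% were detected on no array and 27.7% on all 6. On each array, the undetected stars had a median signal between -2.60% and -0.766% of the percentile, which is at or under the local background.

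The number of detected stars did not separate the groups. It was higher by 4.33 stars on average under loading (exact permutation test over the 6 arrays, two-sided p = 0.4, with 0.1 the smallest p this design allows), with loading replicate 2 as low as non-loading replicate 1. Non-loading replicate 2, loading replicate 1 and loading replicate 3 detected most stars, and these 3 arrays also detected most miRNAs of any kind, 176, 186 and 178, against 140 to 153 on the others. The standard deviation of the negative-control spots was 1.95, 1.80 and 2.03 intensity units on these 3 arrays and 2.28, 2.17 and 2.16 on the others, and its part in the number of detected stars was not tested. With detection counted instead where at least 50% of the spots of a probe lay well above background, the numbers were 9, 10 and 5 without and 15, 6 and 10 with loading, a difference of 2.33 (exact permutation p = 0.5). Since non-loading replicate 3 had 5, at most 5 stars were on all 6 arrays by this rule, against 9 by the software's calls. Without loading replicate 2 the difference was 8.00, and without loading replicate 1 it was 2.00.

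**Figure D1:**
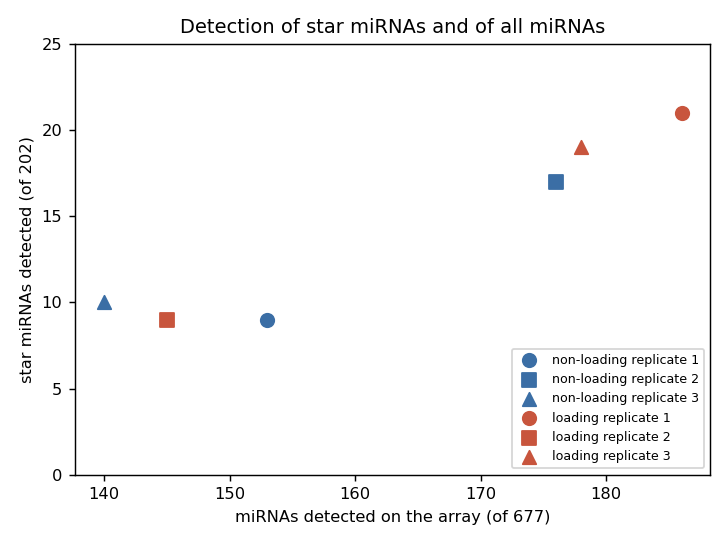
Number of star miRNAs detected (vertical axis, of 202) against the number of all miRNAs detected (horizontal axis, of 677), with 1 point per array, blue for non-loading and red for loading, and the shape giving the replicate. Non-loading replicate 2 and loading replicates 1 and 3 lie at 17 to 21 stars and the other 3 arrays, from both groups, at 9 or 10.

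The 9 stars on all 6 arrays were miR-129-1*, miR-129-2*, miR-150*, miR-202*, miR-211*, miR-296*, miR-362*, miR-455* and miR-652*. Each of the 202 stars was either among them or not tested, since testing required detection on every array of a group. In all, 21.9% of the 677 miRNAs met this. Signals are given as a percent of the array's 75th percentile, which lay between 262.6 and 362.2 intensity units. Signals of different miRNAs rest on different probes, so that their order is not read as an order of amounts. The 3 arrays of a group limit the precision of every value.

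In 4 of these 9, miR-150*, miR-202*, miR-296* and miR-362*, the partner without asterisk was detected on 0 of 6 arrays. miR-202 is known from the gonads. miR-202* had a signal of 72.9%, 29.9% and 22.3% in non-loading replicates 1, 2 and 3, and of 18.6%, 43.3% and 26.4% in loading replicates 1, 2 and 3. Non-loading replicate 1 was highest and loading replicate 1 lowest, 3.92-fold apart, and the groups overlapped. The 2 probes of miR-202* were above background on 55 of 55 and 54 of 54 spots, and both were highest in non-loading replicate 1. Its log2 change, loading minus non-loading, was -0.40 (standard error 0.51, 95% confidence interval -1.64 to 0.85, limma adjusted p = 0.738). Without non-loading replicate 1 the change was 0.10.

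miR-150, a miRNA of mature lymphocytes, gave no detectable signal, but miR-150* was measured at 30.2%, 14.8% and 7.94% without loading and at 14.5%, 21.7% and 15.1% under loading. Here too non-loading replicate 1 was highest and loading replicate 2 came next, and the groups overlapped over a 3.80-fold range. The log2 change of miR-150* was 0.14 (standard error 0.48, 95% confidence interval -1.03 to 1.31, limma adjusted p = 0.936). Its 2 probes were above background on 52 of 56 and 49 of 58 spots. The mean over the loading arrays minus that over the non-loading arrays was 0.392 percent points for one probe and -0.939 for the other. The log2 change was 0.63 without non-loading replicate 1, -0.33 without non-loading replicate 3 and -0.046 without loading replicate 2.

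miR-296 lies in the imprinted Gnas region. miR-296* was steady across arrays, at 7.28%, 7.47% and 6.59% on the non-loading arrays and 7.12%, 8.76% and 8.05% under loading. The loading arrays held the highest 2 values, but loading replicate 1 lay within the non-loading range. The log2 change of miR-296* was 0.16 (standard error 0.11, 95% confidence interval -0.10 to 0.42, limma adjusted p = 0.724), and its unadjusted p of 0.181 was the lowest of the 9 stars. miR-362, of an X-linked miRNA cluster, had a star at 5.85%, 6.17% and 4.54% without loading and at 5.93%, 4.42% and 5.58% with loading. The low array of miR-362* was replicate 3 in the non-loading group and replicate 2 in the loading group, and its log2 change was -0.06 (standard error 0.17, 95% confidence interval -0.46 to 0.35, limma adjusted p = 0.936).

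For 3 more of the 9, miR-129-1*, miR-129-2* and miR-455*, the partner was detected on 5 of 6 arrays. miR-455, a miRNA of cartilage from an intron of the collagen gene Col27a1, was close to background but tested as well, as miR-129 was, with a signal of 3.08%, 3.14% and 3.14% without and 3.76%, 3.36% and 3.86% with loading. The groups of miR-455 did not overlap, as for 15.5% of all miRNAs tested, and its log2 change was 0.23 (standard error 0.08, unadjusted p = 0.0332 and adjusted p = 0.486 in limma). miR-455* was measured at 8.76%, 8.88% and 8.29% without loading and at 10.1%, 8.42% and 10.3% under loading. Loading replicates 1 and 3 were above all non-loading arrays and loading replicate 2 was among them. The log2 change of miR-455* was 0.15 (standard error 0.10, 95% confidence interval -0.11 to 0.40, limma adjusted p = 0.724).

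miR-129 is a miRNA of the nervous system, and its common partner name on the array, miR-129, stands for the 5p strand of both hairpins. miR-129-1* had 7.42%, 7.88% and 5.27% on the non-loading arrays and 6.48%, 5.11% and 7.24% under loading. The 3 highest arrays of miR-129-1* came from both groups. Its log2 change was -0.12 (standard error 0.20, 95% confidence interval -0.61 to 0.37, limma adjusted p = 0.825), and without loading replicate 2 it was 0.021. miR-129-2* had 11.6%, 11.0% and 9.92% without loading and 11.7%, 9.83% and 13.9% with loading, so that the lowest and the highest array were both loading arrays. The change of miR-129-2* was 0.11 on the log2 scale (standard error 0.14, 95% confidence interval -0.24 to 0.46, limma adjusted p = 0.741). Without loading replicate 3 it was -0.014, with Agilent's total gene signal -0.023 and with normexp background correction -0.48.

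The hairpin of miR-211, a miRNA of the melanocyte lineage, gave a star on all 6 arrays and a partner on 3. miR-211* had 11.0%, 7.94% and 6.08% on the non-loading arrays and 9.01%, 10.3% and 10.1% under loading. The loading arrays lay close together, within a non-loading range whose highest array was replicate 1. The log2 change of miR-211* was 0.27 (standard error 0.22, 95% confidence interval -0.25 to 0.80, limma adjusted p = 0.724). Without non-loading replicate 1 it was 0.49, with an unadjusted p of 0.0190 and an adjusted p of 0.608 in limma, and without non-loading replicate 3 it was 0.067. The partner miR-211 was detected in non-loading replicate 3 and loading replicates 1 and 3, with a signal of 3.19%, 3.31% and 7.55% on the non-loading arrays and 3.89%, 4.61% and 4.26% under loading, and was not tested.

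miR-652 was the only one of the 7 stars with an exact partner name whose partner, too, was on all 6 arrays. miR-652* was measured at 10.3%, 9.85% and 6.03% without loading and at 11.5%, 9.23% and 6.76% under loading. Replicate 3 was the lowest array of each group, the number 3 marking no shared origin in the labels. The log2 change of miR-652* was 0.08 (standard error 0.28, 95% confidence interval -0.60 to 0.75, limma adjusted p = 0.936), and it was -0.17 without non-loading replicate 3 and -0.10 without loading replicate 1. The partner miR-652 was steady, at 31.0% ± 0.931 (SD, n = 3) without and 30.7% ± 2.64 (SD, n = 3) with loading, and its log2 change was -0.02 (standard error 0.09, limma adjusted p = 0.957).

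**Figure D2:**
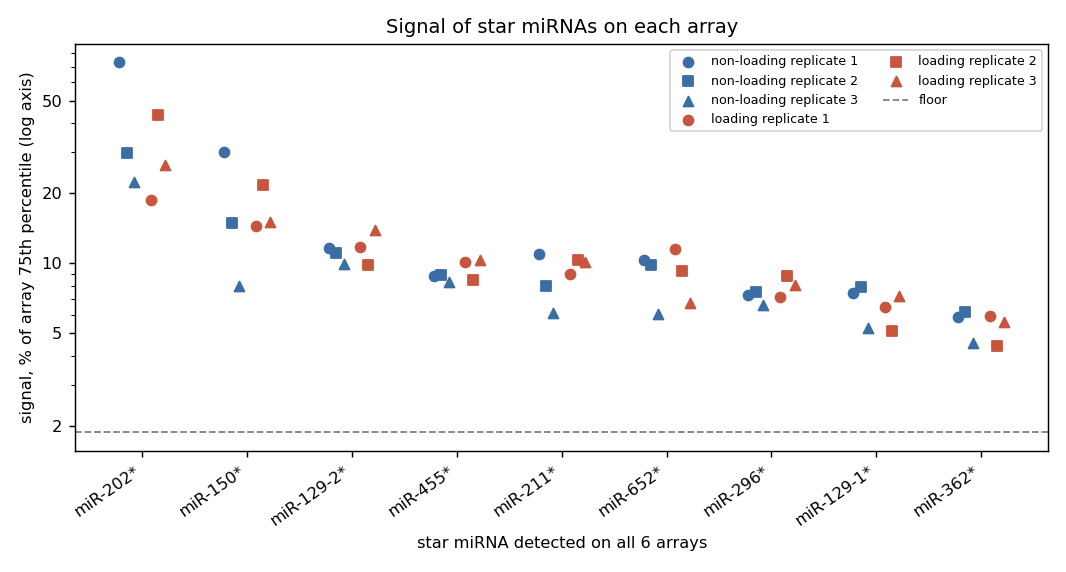
Signal of the 9 star miRNAs detected on all 6 arrays, as a percent of the array's 75th percentile on a log axis, with 1 point per array, blue for non-loading and red for loading, the shape giving the replicate and the dashed line the floor of 1.87%. The points of miR-202* and miR-150* span a 3.92-fold and a 3.80-fold range, and for every star blue and red points overlap.

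Of the 9 star miRNAs, 0 had a limma adjusted p under 0.05, 0 had an unadjusted p under 0.05, and 0 had groups that did not overlap. Over all miRNAs tested on the array, 0 (0%) passed after adjustment, 14 (9.46%) had an unadjusted p under 0.05 and 23 (15.5%) had groups that did not overlap. The methods' test, a comparison with pooled variance, on the same values gave 0 stars at their threshold and 0 after Benjamini-Hochberg adjustment. The 9 changes had a median of 0.11 on the log2 scale, 6 of them above 0, beside a median of 0.06 over all tested miRNAs, 99 of which were above 0. For 67 other tested miRNAs within the signal range of the 9 stars the median was 0.03. The sign of the stars' median was not stable. It was -0.17 without non-loading replicate 3 and -0.22 with the array column as a block (0.0096 over all miRNAs). With normexp background correction it was -0.55 (-0.45 over all miRNAs). In exact two-sided permutation tests of the single stars the lowest p was 0.3, for miR-296* and miR-455*. With 3 arrays a group the intervals stayed wide, with the widest for miR-202* (-1.64 to 0.85) and miR-150* (-1.03 to 1.31).

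**Figure D3:**
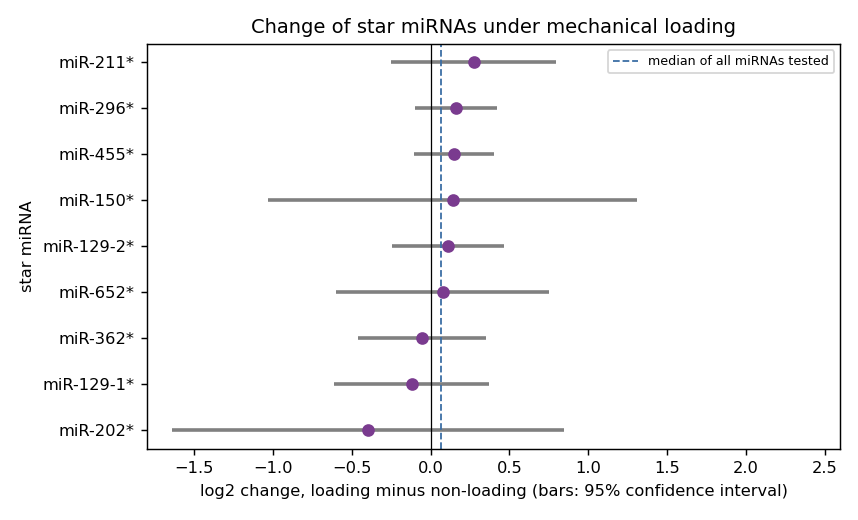
Log2 change of each tested star miRNA, loading minus non-loading (points), with its 95% confidence interval (bars) from limma, the dashed line giving the median of all miRNAs tested. The 9 points lie between -0.40 and 0.27 and every interval holds 0.

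The spread between arrays of the same group differed widely among the stars. The within-group standard deviation on the log2 scale had a median of 0.29 over the 9 stars, against 0.16 over all tested miRNAs and 0.18 over the 67 of similar signal. miR-202* (0.76) and miR-150* (0.72) stood at rank 7 and 8 of all tested miRNAs, counted from the most variable, whereas miR-455* (0.12) and miR-296* (0.13) lay under the median. The arrays lay in columns of the slide, and non-loading replicate 1 and loading replicate 2 shared column 1. These 2 arrays were the highest of the 6 for miR-202*, miR-150* and miR-211*, which held for 29 tested miRNAs (19.6%) in all. They also had the lowest 75th percentiles, 275.1 and 262.6 intensity units. Before scaling they were still the highest for miR-202*, at 200.6 and 113.7 intensity units against 59.3 to 90.8 on the others, and for miR-150*, at 83.0 and 57.0 against 28.8 to 48.9, but not for miR-211*, where loading replicate 3 was highest at 32.6.

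Column 1 and column 2 of the slide each held 1 array of each group, non-loading replicate 2 and loading replicate 3 being those of column 2. Within column 1 the log2 change was -0.75 for miR-202*, -0.47 for miR-150*, -0.09 for miR-211* and -0.54 for miR-129-1*. Within column 2 these 4 were -0.18, 0.03, 0.34 and -0.12. The 2 columns gave changes of opposite sign for miR-150* and miR-211*, and also for miR-129-2* (-0.24 and 0.33) and miR-455* (-0.06 and 0.22). For miR-296* they gave 0.27 and 0.11, for miR-362* -0.41 and -0.15, and for miR-652* -0.15 and -0.54. The part of the position on the slide in these values was not tested. Row 1 held loading replicate 1 beside the 3 non-loading arrays, and within it the change was -0.97 for miR-202*, 0.44 for miR-652* and between -0.07 and 0.22 for the other 7.

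Several stars rested on 1 probe. The array gave each of the 9 stars 2 probes, and for miR-129-1*, miR-129-2*, miR-362* and miR-455* one of them lay above background on 0 spots while the other did so on 48 of 56, 59 of 59, 35 of 55 and 55 of 55 spots. For miR-211* the probes were above background on 40 and 44 of 57 spots each, and their signals moved the same way, by 0.433 and 1.03 percent points under loading. For miR-652*, 27 and 39 of 55 spots were above background, and for miR-296*, 46 of 56 and 13 of 59.

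A further 14 stars were detected on 1 to 5 arrays and were not tested. let-7b*, from a family of miRNAs that rises as cells differentiate, was detected on 4 arrays, non-loading replicates 2 and 3 and loading replicates 1 and 3. Its signal was 5.83%, 8.76% and 11.3% on the non-loading arrays and 11.0%, 7.61% and 8.73% under loading, but only 16 of its 120 spots were well above background. miR-1*, miR-191*, miR-22*, miR-30e*, miR-351* and miR-582* were each detected on the same 3 arrays, non-loading replicate 2 and loading replicates 1 and 3. miR-193* was called on 2 of these 3 arrays (non-loading replicate 2 and loading replicate 1) and miR-24-2* on 2 (loading replicates 1 and 3). miR-30a*, miR-322* and miR-328a* were called on loading replicate 1 alone, and miR-29a* and miR-99a* on loading replicate 3 alone. Thus 13 of the 14 were detected only within these 3 arrays, where 33 of 57 (57.9%) of all miRNAs detected on 1 to 5 arrays were. They are also the arrays on which most miRNAs of any kind were detected.

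For miR-1*, miR-191*, miR-22*, miR-30e* and miR-582* the 3 arrays that called the star also had its highest 3 signals, while miR-351* was higher in loading replicate 2 (3.99%), where it was not called, than in non-loading replicate 2 (3.53%), where it was. miR-1*, whose partner miR-1 is the classical miRNA of striated muscle, had 6.72%, 8.08% and 3.93% on the non-loading arrays and 9.07%, 7.18% and 8.78% under loading. Loading replicate 2, where miR-1* was not called, lay above non-loading replicates 1 and 3 and within 1 percent point of non-loading replicate 2, where it was. miR-191* had 5.12%, 8.96% and 4.06% without and 8.92%, 6.91% and 8.29% with loading. For miR-322* and miR-328a*, 0 of 118 and 0 of 112 spots were well above background although the software called each on 1 array, and for miR-193* 2 of 119 were. These calls are therefore not read as expression.

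To set each star beside the other arm of its hairpin, stars were paired with the same name without asterisk, which 167 of the 202 had. Probes of the 2 arms can bind with different strength, which bears on the size of their signals and on their detection. The arms are set side by side by detection, and a difference in it cannot be told apart from a difference in binding. By the scanner software's calls, the partner was detected on all 6 arrays in 68 pairs. In 58 of these the star was on no array, in 9 on 1 to 5 arrays and in 1, miR-652*, on all 6. Most of the 9 calls were weak. Over all arrays, miR-322* and miR-328a* had 0 spots well above background, miR-29a*, miR-30a* and miR-99a* had 1 each, and miR-193* had 2. Where the partner was on no array, the star was on no array in 76 pairs, on 1 to 5 in 4 (miR-1*, miR-191*, miR-351* and miR-582*) and on all 6 in 4 (miR-150*, miR-202*, miR-296* and miR-362*). Where the partner was on some arrays, the star was on none in 13 pairs and on all 6 in 2, miR-211* and miR-455*. Of the 20 detected stars with an exact partner, 8 had a partner without detection. Among pairs whose star was on no array, the partner was on no array in 76, on some in 13 and on all 6 in 58. An undetected partner was therefore not particular to the detected stars.

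**Figure D4:**
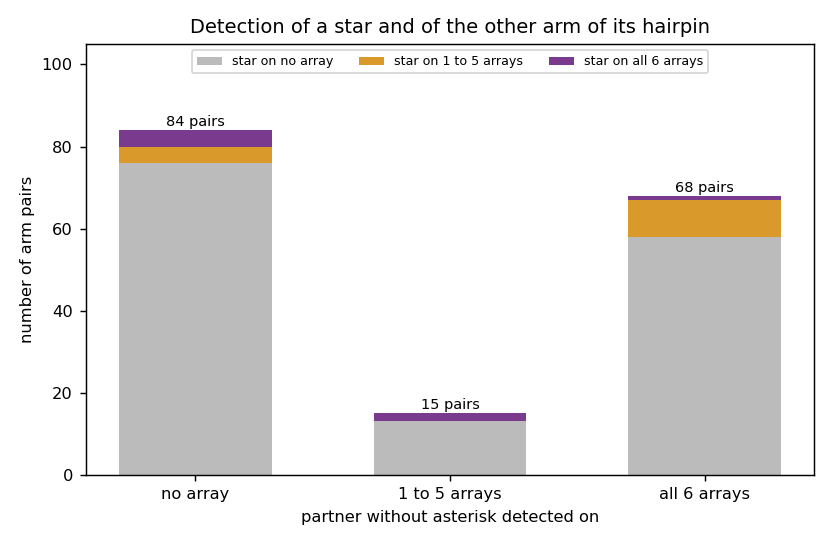
Number of arm pairs (vertical axis) by the arrays on which the partner without asterisk was detected (horizontal axis), each bar split by the arrays on which the star was detected. Stars on all 6 arrays are 4 in the bar of partners on no array and 1 in the bar of the 68 partners on all 6 arrays. Detection is by the scanner software's calls, some of which rest on few spots.

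Partners far above background also came without a detected star. Among partners on all 6 arrays, the 58 whose star was on no array had a median signal of 40.0% of the percentile. The 10 whose star was detected on any array had a similar median, 36.2%. The partners named next are the brightest of the 58. The star was on no array for miR-214, a miRNA of mesenchymal tissue, whose own mean signal was 1773% of the percentile, and for let-7i (921%), miR-16 (805%), miR-23a (736%), miR-23b (588%), miR-34a (556%), miR-27a (539%) and let-7d (522%). Of the partners on all 6 arrays whose star was detected on at least 1 array, let-7b had 2529%, 2216% and 2039% on the non-loading arrays and 1781%, 2307% and 2011% under loading. miR-22 (mean 1425%) and miR-29a (mean 1170%), which targets collagen mRNAs, also had a star detected on at least 1 array, but miR-22* lay at 1.91% to 2.94% with 21 of 113 spots well above background, and miR-29a* was called on 1 array with 1 of 116 spots.

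The change of an arm pair was tested as the log2 ratio of star to partner signal within each array, in which the scaling of the array cancels. Both arms were tested in 8 pairs of the whole array, of which 2 belonged to the star miRNAs examined here, and of the 8 pairs 0 (0%) had an unadjusted p under 0.05. The log2 ratio of miR-455* to miR-455 was 1.51, 1.50 and 1.40 on the non-loading arrays and 1.42, 1.32 and 1.42 under loading. Loading replicate 2 was the lowest array, and the groups overlapped narrowly. The ratio changed by -0.08 (standard error 0.09, 95% confidence interval -0.30 to 0.14, limma adjusted p = 0.877). For miR-652* and miR-652 the log2 ratio was -1.59, -1.61 and -2.41 without and -1.35, -1.65 and -2.32 with loading. It was lowest in replicate 3 of both groups. The change of the ratio for miR-652 was 0.09 (standard error 0.34, 95% confidence interval -0.76 to 0.94, limma adjusted p = 0.877). With partner names extended by leaving off the locus number, miR-129 could be added, and the ratio to it changed by -0.13 for miR-129-1* and 0.10 for miR-129-2* (limma adjusted p = 0.873 for each). Within column 1, column 2 and row 1 of the slide the ratio of miR-455* changed by -0.18, -0.08 and -0.05, and that of miR-652* by -0.06, -0.71 and 0.52.

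By family or gene cluster, 77 of the 202 stars fell into 16 groups of miRNAs known from stem cells, connective tissue or growth control. Of these 77 stars, 8 were detected on any array and 1, miR-362* of the X-linked cluster, was tested, where 23 of all 202 stars (11.4%) were detected on any array. Most of these 8 calls were weak, with 0 of 118 spots well above background for miR-322*, 1 of 116 for miR-29a* and for miR-30a*, 1 of 119 for miR-99a*, 4 of 119 for miR-24-2* and 6 of 108 for miR-30e*. In 9 of the groups no star was detected, among them the cluster of miR-17 and miR-92 with its paralogs (12 stars), which promotes proliferation, the miR-181 family (6 stars), the miR-130, miR-148, miR-152 and miR-301 group (5 stars), the p53-induced miR-34 family (3 stars), miR-221 and miR-222 (2 stars) and miR-143 and miR-145 of smooth muscle (2 stars). Of 11 stars of the let-7 and miR-98 family 1 was detected, let-7b*, and of 5 miR-30 stars 2 were, miR-30a* and miR-30e*. The miR-29 group, which represses extracellular matrix genes, had 1 of 4 (miR-29a*), and the miR-23, miR-24 and miR-27 group 1 of 6 (miR-24-2*). The stars outside these groups, which outnumbered the 77 inside, held 15 of those detected on any array and 8 of those tested. As a share of their stars, detection on any array was similar inside and outside the groups. The counts are therefore not read as fewer detections in these families.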

How the data were processed

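Total RNA of 6 samples, 3 loading and 3 non-loading, was hybridised to Agilent rat miRNA arrays. The authors deposited scanner output of Agilent Feature Extraction (10.7 per the labels, 10.7.3.1 per the file headers), with a background-subtracted intensity per spot that is not scaled between arrays. The deposited series matrix holds the same values (largest difference 0), as unscaled, uncentred intensities, with column medians of -0.0688, 0.0199 and -2.03 (non-loading) and 0.0533, -0.422 and 0.440 (loading). Saturated spots numbered 0, and outlier spots (2.93% to 4.17% per array) were not used.

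The mean of the spots of a probe was scaled to the 75th percentile of its array, taken over 173 probes with at least 50% of spots well above background on all arrays. Scaled probes were summed per miRNA, floored at 1.87% (the 1st percentile of detected miRNAs) and put on the log2 scale. miRNAs found on every array of a group by the scanner software (21.9% of 677) entered limma 3.58.1 (R 4.3.3, lmFit and eBayes), p-values were adjusted over them by Benjamini-Hochberg, and single values were compared by exact permutation. The limma steps were also tested on simulated data.

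Named were all tested stars, all stars detected on any array, their partners, partners with the strongest signals and no detected star (chosen after their values were seen), and the fixed families and lineage markers. The member rule uses names alone, but the members and lists were chosen with earlier results of these data known. RefSeq sequences were matched by miRNA name, with arms assigned from the usual naming and not checked against probes, for 5 of 9 stars. No sequence is printed for the other 4, miR-150*, miR-202*, miR-362* and miR-455*. Alternatives concerned background correction (normexp, offset 50), scaling, probe summary, filters, the methods' test (Student-Newman-Keuls, for 2 groups a comparison with pooled variance), partner names, detection rule, blocks and arrays left out.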

Additional observations from a re-analysis of the deposited data

How the results depend on the processing

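No star miRNA and no arm pair of a star had an adjusted p under 0.05 in limma or the methods' test under any alternative run. Among the limma fits the lowest adjusted p of a star was 0.430. The number of stars with an unadjusted p under 0.05 was 0, except when 1 array was left out, where it ranged from 0 to 1. It was 1 without loading replicate 2 (miR-455*) and without non-loading replicate 1 (miR-211*), with an unadjusted limma p of 0.0372 and 0.0190 and an adjusted p of 0.501 and 0.608. The median change of the 9 stars, 0.11, was -0.55 with normexp background correction (-0.45 over all miRNAs), -0.22 with the array column as a block (0.0096 over all miRNAs), -0.044 with all probes behind the 75th percentile (-0.090 over all miRNAs) and 0.0096 with Agilent's total gene signal (-0.026 over all miRNAs), and ranged from -0.17 (without non-loading replicate 3) to 0.16 with 1 array left out. The difference in detected stars ranged from 2.00 to 8.00 with 1 array left out.

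Signs of single stars turned as follows, and the cause was not tested. Normexp gave -0.48 for miR-129-2*, -0.51 for miR-150*, -0.52 for miR-211*, -0.55 for miR-296*, -0.52 for miR-455* and -0.56 for miR-652*, and -0.20 for the miR-652* ratio. It was run on the median signal and median background of each spot. Some background values were extreme, and with values over 3 MADs from the array's median replaced first, miR-362* was 0.017 and the miR-455* ratio 0.046. The 75th percentile over all probes gave -0.044 for miR-129-2*, -0.015 for miR-150*, -0.0072 for miR-455* and -0.077 for miR-652*. Agilent's total gene signal gave -0.023 for miR-129-2* and 0.40 for the miR-455* ratio. Quantile normalization gave -0.041 for miR-652* and 0.079 for the miR-455* ratio. The column block gave -0.22 for miR-150*, -0.35 for miR-652* and -0.39 for the miR-652* ratio, and the row block -0.074 for miR-150* and 0.12 for miR-362*. The column block and the replaced background were chosen after seeing the data.

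With 1 array left out, the change ranged from -0.30 to 0.021 for miR-129-1*, -0.014 to 0.24 for miR-129-2*, -0.33 to 0.63 for miR-150*, -0.75 to 0.10 for miR-202*, 0.067 (without non-loading replicate 3) to 0.49 for miR-211*, 0.091 to 0.24 for miR-296*, -0.19 to 0.072 for miR-362*, 0.092 to 0.24 for miR-455*, -0.17 to 0.28 for miR-652*, -0.11 to -0.048 for the miR-455* ratio and -0.17 to 0.37 for the miR-652* ratio. The arrays whose absence turned a sign were loading replicate 2 for miR-129-1*, miR-150* and miR-362*, loading replicate 3 for miR-129-2*, non-loading replicate 3 for miR-150*, miR-652* and the miR-652* ratio, loading replicate 1 for miR-652* and its ratio, non-loading replicate 1 for miR-202* and non-loading replicate 2 for miR-362*.

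The groups share replicate numbers in the labels, but same-numbered samples did not deviate together (correlations of -0.69, -0.47 and 0.11). Same-numbered arrays also lay in different columns of the slide, so these values cannot show whether such samples shared an origin. With the replicate block 0 stars passed after adjustment and the median change was 0.11, and it changed no call. The slide and the scan could not be used as blocks, since there was 1 of each. The stars not tested did not meet the detection filter, and their changes were not tested.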
